A study of Mus musculus with 6 samples.

Results

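The BCL2 family decides whether a cell keeps its mitochondria intact or releases cytochrome c and dies by apoptosis. The 10 members described here were taken by symbol from a list of family genes and found by Ensembl identifier: 4 pro-survival genes (Bcl2, Bcl2l1, Mcl1 and Bcl2a1b), 2 effectors (Bax and Bak1) and 4 BH3-only genes (Bcl2l11, Bbc3, Pmaip1 and Bid). They are 10 of the 55401 genes in the table, and all 10 were among the 15959 genes that passed the filter on low counts. Each was chosen as a family gene, with earlier results of these data known, and no threshold was used.

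The cells were mouse bone marrow-derived macrophages (BMDMs) of strain C57BL/6, that is, primary macrophages differentiated from marrow cells. A negative-control siRNA (siNC) had been transfected for 3 libraries and a Piezo1 siRNA (siPiezo1) for the other 3; Piezo1 encodes a mechanically gated cation channel. Every library came from cells stretched for 4 h, so the comparison is of Piezo1 knockdown against control in stretched cells; cells without stretch are not analysed here. The study asked how Piezo1 promotes the proliferation of stretched macrophages. Age, the source animals and the siRNA sequence are not given in the labels used here.

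Pro-survival proteins of the family hold the effectors BAX and BAK in check. BH3-only proteins sense stress and either neutralise the pro-survival proteins or activate the effectors, which then perforate the outer mitochondrial membrane. In myeloid cells MCL1 and A1, the product of the Bcl2a1 genes, are known as short-lived survival proteins whose transcripts respond to growth factors and inflammatory signals. RNA levels do not show the amount or the activity of these proteins, which are also controlled by degradation, phosphorylation and cleavage.

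The libraries held 61086684 to 75052745 estimated counts, and 1 sequenced fragment was worth about 3.84 to 3.88 counts, so they stood for about 15.7 to 19.3 M fragments. Levels are given as CPM, counts scaled to a common library total with TMM factors. Piezo1 measured 180, 285 and 189 CPM under siNC, against 111, 109 and 113 CPM under siPiezo1, lower in every siPiezo1 library. Its log2 fold change was -0.97 ± 0.18 (SE) with 6 libraries and -0.73 ± 0.06 (SE) without siNC 2, its highest library. Yet the edgeR adjusted p was 0.744 with 6 libraries, against 0.00245 without siNC 2 and 0.000982 with DESeq2. So a gene whose mean over all libraries was 51.0% of control was itself not called in the edgeR fit of all libraries. The library siNC 2 stood apart: its log2 CPM correlated with the other libraries at 0.968 to 0.977 across genes, against 0.987 to 0.991 among the other 5. The 10 macrophage markers summed to 28240 CPM in siNC 2 and to 34640 to 37580 CPM in the others. Lyz2 was the largest term, at 20610 CPM in siNC 2. Of the 10 markers 8 were lowest in siNC 2, while Cd14 was highest there, at 1263 CPM against 722 to 926 CPM. The 12 neutrophil markers summed to 4234 CPM there against 774 to 936 CPM, and the 8 markers of proliferating cells to 869 CPM against 363 to 665 CPM. All 5 T cell markers were listed at 0, and 5 markers each of B cells, dendritic cells, red cell precursors and mast cells or basophils summed to at most 9.46 CPM in any library. The 6 stromal and endothelial markers summed to 29.4 CPM in siNC 2 and to 9.80 to 16.1 CPM elsewhere. Pecam1 alone stood at 18.7 CPM in siNC 2, against 1.24 to 3.69 CPM elsewhere. Of these 6 markers 2 were highest in siNC 2, 1 was lowest and 3 were neither. Each member is therefore also given without siNC 2, and another gene where leaving it out turned the sign of a log2 fold change or moved it by over 1.5 times. In such bulk samples fewer cells of a type and less RNA per cell cannot be told apart.

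Bcl2a1b cannot be read as a gene on its own. It is 1 of 3 near-identical expressed copies on chromosome 9, with Bcl2a1a and Bcl2a1d, and reads from 1 copy can be counted under another. The coding sequences, taken from the GENCODE M21 transcripts (build GRCm38), are 519 bases long in each copy. Bcl2a1b differs from Bcl2a1d at 6 bases (98.8% identity) and from Bcl2a1a at 11 (97.9%), and Bcl2a1a from Bcl2a1d at 7. The first 120 coding bases are shown because 7 of the 12 positions that differ among the copies lie there. Capitals mark those positions, and the rest is in lower case, 5′ to 3′.
Bcl2a1b: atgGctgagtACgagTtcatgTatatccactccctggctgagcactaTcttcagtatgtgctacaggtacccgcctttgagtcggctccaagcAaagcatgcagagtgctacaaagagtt
Bcl2a1d: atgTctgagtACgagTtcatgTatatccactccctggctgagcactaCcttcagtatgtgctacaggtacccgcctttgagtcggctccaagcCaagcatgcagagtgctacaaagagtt
Bcl2a1a: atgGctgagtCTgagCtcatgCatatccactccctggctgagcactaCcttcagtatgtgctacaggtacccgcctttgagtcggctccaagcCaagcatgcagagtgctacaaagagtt
The longest coding stretch shared by all 3 copies is 217 bases, longer than the 150-base reads. A further gene model, Gm29094, shares 49.1% of the exon bases of Bcl2a1b on the same strand, and it held at most 3.03 CPM. For the other 9 members, near-identical transcripts were found only in gene models that overlap them and, for Mcl1, in Gm20432, which was listed at 0. Bid shares 17.7% of its exon bases with Bcl2l13 on the opposite strand, which stood at 44.7 to 51.9 CPM. Bak1 shares up to 18.2% with a model of Ggnbp1, also on the opposite strand, whose models stayed at or below 4.11 CPM. The strand setting of the counting is unknown here.

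None of the 10 members passed the test between siPiezo1 and siNC. By the quasi-likelihood test of edgeR, with p adjusted over all genes after Benjamini and Hochberg, 0 of 10 members were called, where 1 of 15959 genes was called (0.00627% of those tested), and the smallest adjusted p among the members was 0.978. DESeq2 and limma-voom also called 0 members, against 0.551% and 0.00627% of all genes. At an unadjusted p under 0.05 there was 1 member, Bcl2a1b, against 4.93% of all genes. Bcl2a1b was also the only member whose groups did not overlap, a pattern seen in 11.9% of all genes. The labels do not say whether replicates were separate cultures or animals, and the p-values cover only the spread among these samples, possibly technical.

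**Figure D1:**
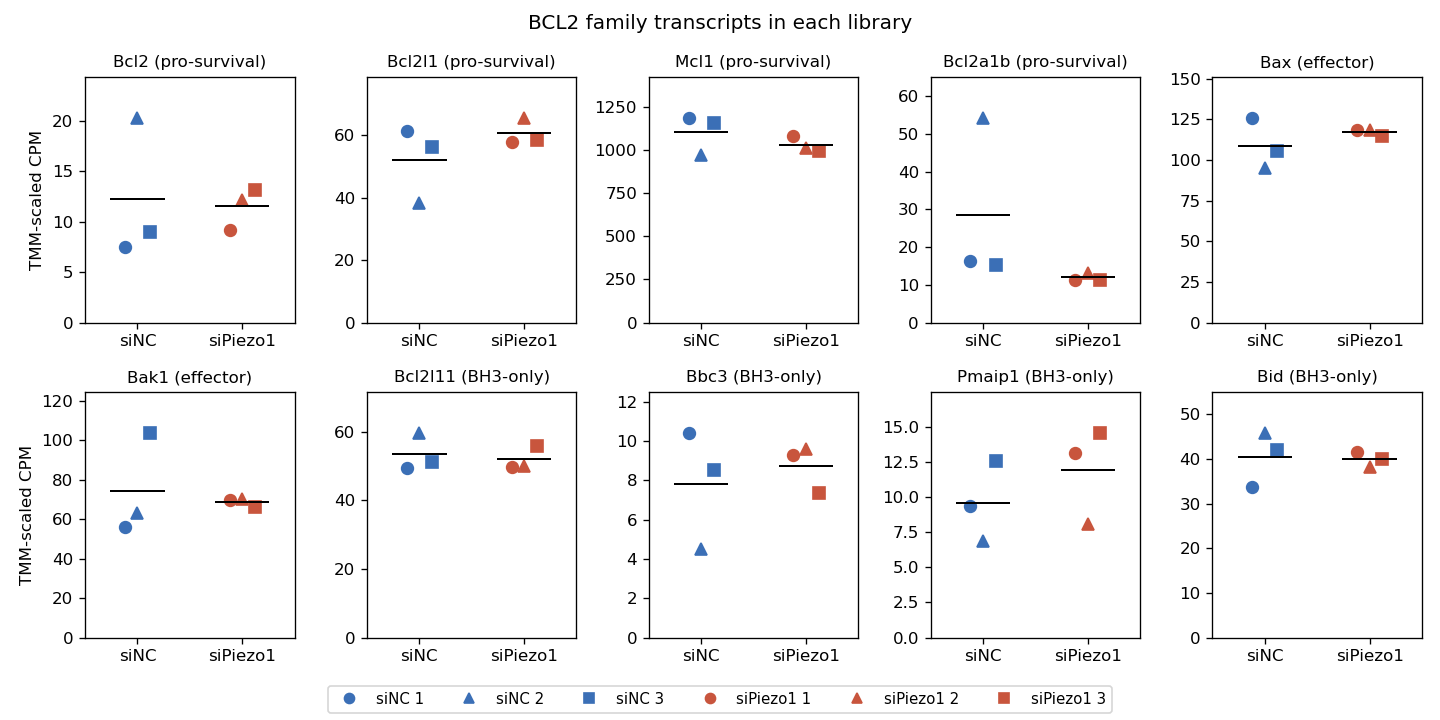
TMM-scaled CPM of the 10 members in each library (vertical axes start at 0); points are libraries, their shape gives the replicate number, and black lines are group means of 3 libraries. The groups overlap in every panel but that of Bcl2a1b, where siNC 2 lies at 54.2 CPM, far above the other 5 libraries.

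Among the pro-survival genes Mcl1 was by far the most abundant. Its libraries measured 1183, 969.7 and 1155 CPM under siNC, against 1082, 1009 and 990.0 CPM under siPiezo1. The lowest value was that of siNC 2, and the siPiezo1 libraries lay between it and the other siNC libraries. The log2 fold change was -0.10 ± 0.11 (SE), with a 95% interval of -0.35 to 0.15. Without siNC 2 it was -0.19 ± 0.06 (SE; interval -0.32 to -0.05), with an edgeR quasi-likelihood p of 0.0122 unadjusted and 0.178 adjusted, and then each siPiezo1 library was below both siNC libraries. In that fit 178 of 15959 genes were called (1.12%), and 14.4% of all genes had an unadjusted p under 0.05.

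Bcl2l1 encodes BCL-XL, a pro-survival protein that binds BAX, BAK and most BH3-only proteins. Its levels were 61.2, 38.4 and 56.2 CPM under siNC, against 57.8, 65.4 and 58.6 CPM under siPiezo1. Again siNC 2 was the lowest, and the other 5 libraries lay within 56.2 to 65.4 CPM. The log2 fold change of 0.22 ± 0.18 (SE; interval -0.20 to 0.64) became 0.04 ± 0.09 (SE; interval -0.16 to 0.24) without siNC 2.

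Bcl2, the founding member, was scarce in these cells. Its libraries measured 7.46, 20.3 and 8.98 CPM under siNC, against 9.19, 12.2 and 13.2 CPM under siPiezo1. The sign of its log2 fold change was not stable. It turned without siPiezo1 1 (0.047), with the replicate number as a block (0.041) and without siNC 2. The library siNC 2 held 2.46 times the mean of siNC 1 and 3. With it the log2 fold change was -0.09 ± 0.39 (SE; interval -1.02 to 0.84). Without it the value was 0.48 ± 0.20 (SE; interval 0.03 to 0.94), with all 3 siPiezo1 libraries above both siNC libraries, an edgeR quasi-likelihood p of 0.0396 unadjusted and 0.312 adjusted. Among those 5 libraries 8 of 8 markers of proliferating cells also had a log2 fold change above 0 (median 0.60, none called), and their sums were 444, 551 and 665 CPM under siPiezo1 against 363 and 381 CPM under siNC. Of 10 macrophage markers 7 were below 0, among them Adgre1 and Fcgr1, which were called lower (edgeR adjusted p of 0.0385 and 0.0280). The part of these cell states in the Bcl2 value was not tested.

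Bcl2a1b had the log2 fold change farthest from 0 among the members with all 6 libraries; without siNC 2 that of Bcl2 was farther. Its levels were 16.4, 54.2 and 15.3 CPM under siNC, against 11.4, 13.2 and 11.3 CPM under siPiezo1. Each siPiezo1 library was below each siNC library, and siNC 2 stood at 3.42 times the mean of the other siNC libraries. Mean CPM under siPiezo1 was 41.8% of that under siNC, a log2 fold change of -1.26 ± 0.50 (SE; interval -2.44 to -0.08), with an edgeR quasi-likelihood p of 0.0396 unadjusted and 0.978 adjusted. The exact permutation test (two-sided, on CPM) gave p = 0.1, the smallest that 3 against 3 libraries allow. Without siNC 2 the fold change shrank to -0.41 ± 0.14 (SE; interval -0.73 to -0.09), with an edgeR quasi-likelihood p of 0.0181 unadjusted and 0.217 adjusted.

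The other Bcl2a1 copies did not follow the same order of libraries. Bcl2a1a measured 3.04, 20.0 and 3.21 CPM under siNC, against 4.89, 3.90 and 4.59 CPM under siPiezo1, so that siPiezo1 lay above siNC 1 and 3 and below siNC 2. Its log2 fold change was -0.97 ± 0.74 (SE) with all libraries and 0.51 ± 0.23 (SE) without siNC 2. Bcl2a1d measured 2.75, 15.8 and 4.01 CPM under siNC, against 2.24, 3.62 and 3.17 CPM under siPiezo1, with overlapping groups and a fold change of -1.32 ± 0.66 (SE), or -0.17 ± 0.31 (SE) without siNC 2. None of these values passed the test. Bcl2a1b made up 73.9%, 60.3% and 67.9% of the summed CPM of the copies in siNC 1, 2 and 3 and 61.5%, 63.7% and 59.3% in siPiezo1, so the split between copies was not constant within a group.

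Summed over the 3 copies, A1 transcripts measured 22.2, 90.02 and 22.5 CPM under siNC, against 18.5, 20.7 and 19.0 CPM under siPiezo1. The groups did not overlap in the sum either. Fitted as 1 gene, the sum had a log2 fold change of -1.21 ± 0.55 (SE; edgeR adjusted p = 0.978). Without siNC 2 it was -0.21 ± 0.11 (SE), with an edgeR quasi-likelihood p of 0.0938 unadjusted and 0.451 adjusted. A sum does not depend on how reads were split among these 3 copies.

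The A1 copies were highest in the library in which a number of inflammatory and neutrophil genes were highest. Of the 13 genes of NF-kB feedback and inflammation, 8 were highest in siNC 2 and 3 were lowest there: Nfkb2 at 117 CPM against 131 to 180 CPM, Relb at 34.4 against 44.3 to 61.1, and Icam1 at 169 against 243 to 276. Ccl2, a monocyte chemokine on that list, stood at 597 CPM in siNC 2 against 16.9 to 30.8 CPM elsewhere. Cxcl3, a neutrophil chemokine, stood at 282 CPM against 10.9 to 28.0 CPM, and Tnf, of the death receptor list, at 262 CPM against 83.5 to 102 CPM. The neutrophil calprotectin gene S100a9 stood at 1044 CPM there against 161 to 208 CPM. Among the 5 libraries without siNC 2 these genes did not all go the way of Bcl2a1b: Cxcl3 was higher in siPiezo1 (log2 fold change 1.15, edgeR adjusted p = 0.0159 without siNC 2), while Bcl2a1b and S100a9 were lower in each siPiezo1 library than in either siNC library. The neutrophil markers were divided in that fit. Of the 12, 5 had a log2 fold change above 0 and 7 below (median -0.05, none called), with S100a8 at 0.06. The part of other cells or of an inflammatory state in the Bcl2a1b values was not tested.

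**Figure D2:**
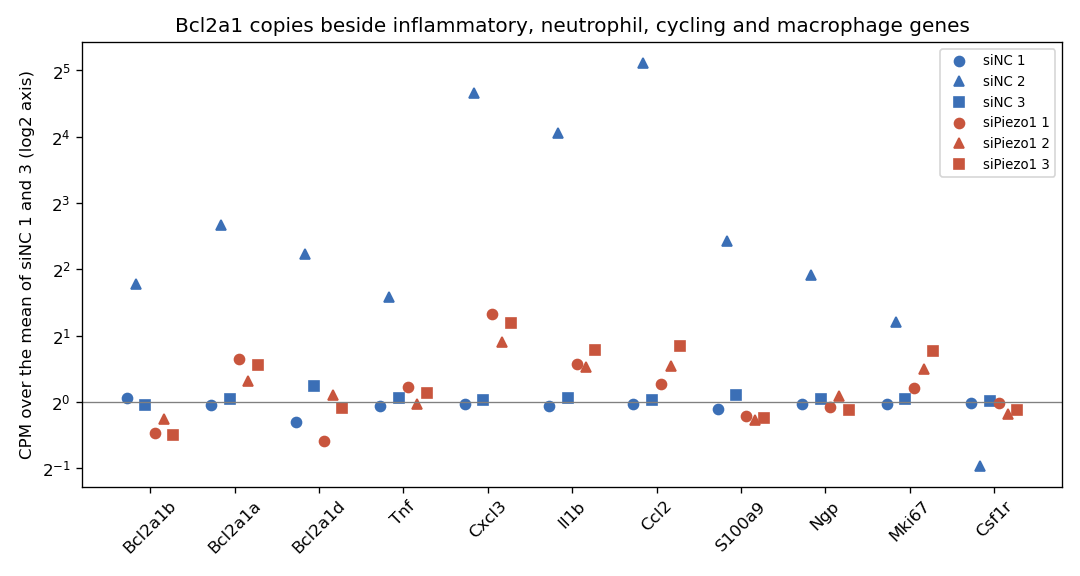
CPM of each library divided by the mean of siNC 1 and 3 (log2 axis) for the 3 Bcl2a1 copies, 4 inflammatory genes, 2 neutrophil markers, the proliferation marker Mki67 and the macrophage receptor gene Csf1r. The blue triangle of siNC 2 lies above all other points for every gene but Csf1r, for which it lies below, and the siPiezo1 points lie below the line for Bcl2a1b and above it for Bcl2a1a.

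The effector genes differed less. Bax measured 126, 95.3 and 105 CPM under siNC, against 119, 119 and 115 CPM under siPiezo1. The siPiezo1 libraries lay inside the siNC range, with siNC 2 again the lowest. The log2 fold change was 0.11 ± 0.11 (SE; interval -0.16 to 0.37), and 0.02 ± 0.08 (SE; interval -0.17 to 0.21) without siNC 2.

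Bak1 was the only member for which siNC 2 was neither the highest nor the lowest library. Its libraries measured 56.3, 63.2 and 104 CPM under siNC, against 69.6, 70.5 and 66.3 CPM under siPiezo1. Here siNC 3 stood apart, above all other libraries, and it sets the sign. The log2 fold change was -0.11 ± 0.22 (SE; interval -0.65 to 0.42) with all libraries, -0.22 ± 0.28 (SE) without siNC 2 and 0.20 ± 0.10 (SE) without siNC 3, where the edgeR quasi-likelihood p was 0.0880 unadjusted and 0.915 adjusted.

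The BH3-only genes showed no difference larger than the spread between replicates. Bcl2l11 encodes BIM, which binds every pro-survival protein and is held down by growth factor signalling through ERK and AKT. Its libraries measured 49.3, 59.6 and 51.2 CPM under siNC, against 49.7, 50.2 and 55.9 CPM under siPiezo1. The groups overlapped almost fully, and the log2 fold change of -0.04 ± 0.11 (SE) had an interval of -0.29 to 0.21, the narrowest of the 10 together with that of Mcl1. Without siNC 2 the value was 0.05 ± 0.09 (SE; interval -0.15 to 0.24).

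Bid encodes a protein that caspase-8 cleaves to carry death receptor signals to the mitochondria. Its libraries measured 33.7, 45.8 and 42.1 CPM under siNC, against 41.6, 38.2 and 40.01 CPM under siPiezo1. The siPiezo1 libraries lay within the siNC range, and the log2 fold change was -0.02 ± 0.13 (SE; interval -0.33 to 0.29), or 0.07 ± 0.11 (SE; interval -0.18 to 0.33) without siNC 2. The overlap with Bcl2l13, noted with the sequences, applies to these values.

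Bbc3 and Pmaip1 encode PUMA and NOXA, both induced by p53, and both were scarce. Bbc3 measured 10.4, 4.52 and 8.51 CPM under siNC, against 9.31, 9.58 and 7.34 CPM under siPiezo1, with siNC 2 the lowest. Its log2 fold change was 0.16 ± 0.31 (SE; interval -0.59 to 0.91), and it turned to -0.11 ± 0.19 (SE; interval -0.55 to 0.32) without siNC 2. The lowest Bbc3 value rested on about 88 fragments, the fewest of any member in any library.

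Pmaip1 measured 9.38, 6.90 and 12.6 CPM under siNC, against 13.2, 8.11 and 14.6 CPM under siPiezo1. Both groups spread about as widely, with siNC 2 lowest, and the log2 fold change was 0.31 ± 0.30 (SE; interval -0.40 to 1.03). Single libraries moved this value: it was 0.12 ± 0.27 (SE; interval -0.51 to 0.75) without siNC 2, 0.15 without siPiezo1 3, 0.53 without siPiezo1 2 and 0.55 without siNC 3. With all libraries a change of 2-fold in either direction lies outside the interval for Bbc3 but not, on the higher side, for Pmaip1. NOXA binds MCL1 and A1, and neither its own transcript nor that of Mcl1 passed the test.

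**Figure D3:**
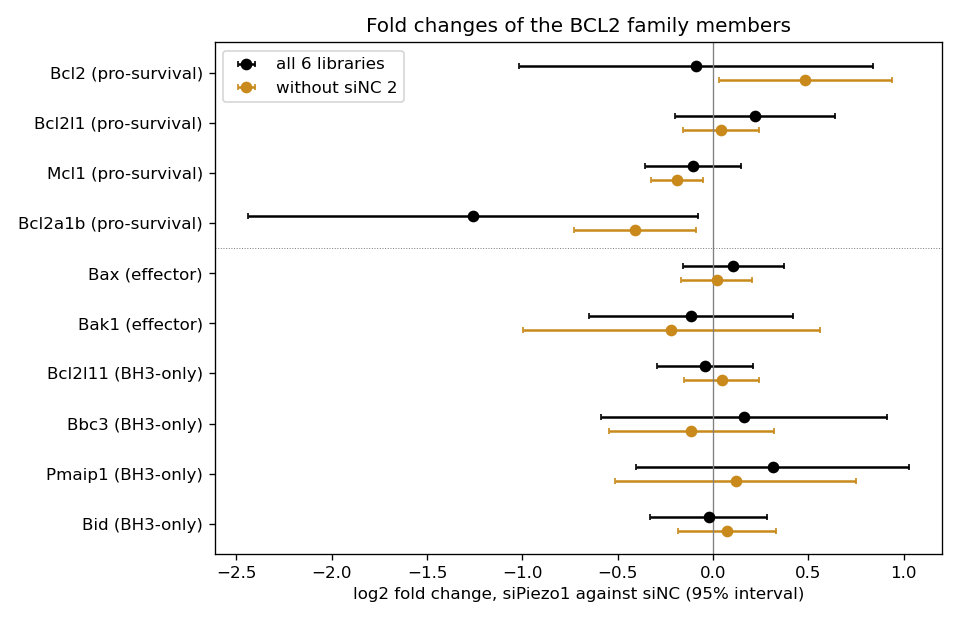
Log2 fold change of siPiezo1 against siNC for the 10 members with 95% intervals from edgeR's quasi-likelihood fit, with all 6 libraries (black) and without siNC 2 (ochre). The dotted line divides the 4 pro-survival genes from the 6 pro-death genes, and leaving out siNC 2 moves Bcl2a1b from -1.26 to -0.41 and Bcl2 from -0.09 to 0.48.

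Taken by side, the pro-survival genes had a median log2 fold change of -0.10, with 1 above and 3 below 0. The pro-death genes had a median of 0.04, with 3 above and 3 below 0, and the median over all 15959 genes was -0.01. Without siNC 2 the medians were -0.07 and 0.03, with 2 of 4 and 4 of 6 members above 0, beside a median of 0.01 over all genes. These medians are smaller than the SD of the per-library medians within a group (SD 0.15 for the pro-survival and 0.10 for the pro-death genes). That SD is of single libraries and is not an error of the medians, which were not tested. The library siNC 2 was the highest or the lowest of the 6 for 9 of the 10 members, where this held for 55.9% of all genes. It was the highest for Bcl2, Bcl2a1b, Bcl2l11 and Bid and the lowest for Bcl2l1, Mcl1, Bax, Bbc3 and Pmaip1, so both sides of the family moved in both directions in that library.

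Levels of different members were compared per length, as CPM per kb of annotated exon. Mcl1 led with 312 ± 26.2 CPM per kb (SD over 6 libraries), 4.37 ± 0.43 times the next member, Bax, at 71.7 ± 6.93. Bak1 followed at 29.8 ± 6.88 and Bcl2a1b at 24.9 ± 20.5, whose ranges overlapped. The range of Bcl2a1b, from 13.8, also overlapped that of Bcl2l1, up to 14.3. Bcl2l1 at 12.3 ± 2.03 and Bid at 11.3 ± 1.15 could not be ordered beyond their spread. Below them stood Bcl2l11 at 6.56 ± 0.52, then Pmaip1 at 3.95 ± 1.13 and Bbc3 at 3.90 ± 0.99, which overlapped. Bcl2 was the lowest by its mean, at 1.296 ± 0.506 CPM per kb, but its range, up to 2.21, overlapped that of Bbc3, from 2.13; both of these values are from siNC 2. Pmaip1 and Bbc3 changed places when the longest transcript was used as the length, and the other places stayed the same.

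**Figure D4:**
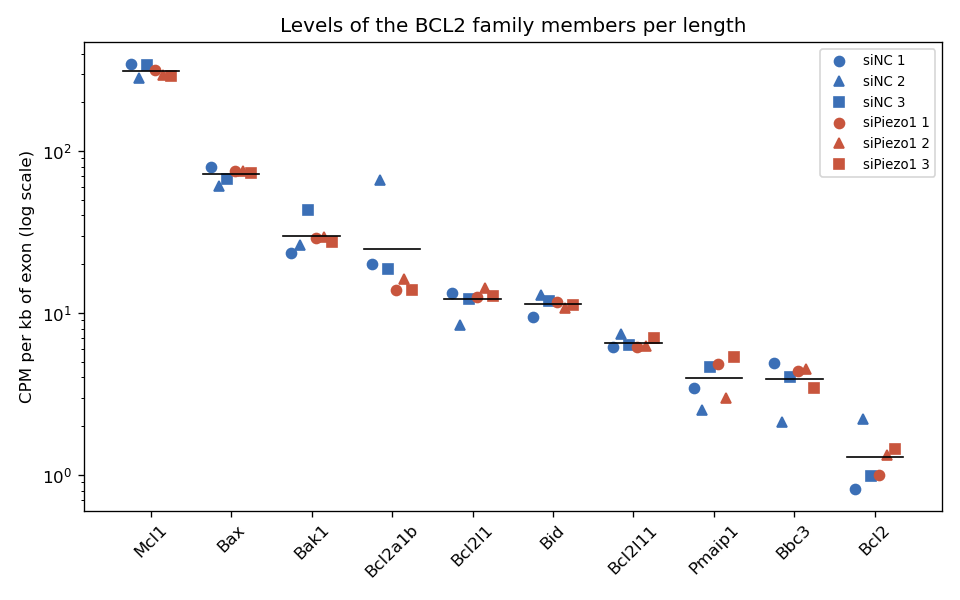
CPM per kb of exon (log axis) of each member in each library, ordered by the mean over the 6 libraries (black lines). Mcl1 lies between 284 and 346 CPM per kb, above every other member, and Bcl2 is the lowest by its mean.

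The sums that follow hold only the 4 pro-survival and 6 pro-death members. Bcl2a1a, Bcl2a1d, Bcl2l2, Bad and Bmf, among others, are not in them. Mcl1 alone made up 91.0%, 78.7% and 91.4% of the summed pro-survival level per kb in siNC 1, 2 and 3 and 92.0%, 90.3% and 91.2% in siPiezo1. The share was lower in siNC 2, where Bcl2a1b stood at 66.4 CPM per kb. The summed pro-survival level per kb divided by the summed pro-death level was 2.99, 3.23 and 2.70 in siNC and 2.62, 2.54 and 2.50 in siPiezo1. The siPiezo1 libraries lay below the siNC libraries in this ratio, in which Mcl1 and Bax are the largest terms. It is given as a description with no test. Without Mcl1 the ratio was 0.270, 0.689 and 0.234 in siNC and 0.210, 0.246 and 0.220 in siPiezo1, and the groups overlapped. The effectors summed to 103, 86.7 and 110.0 CPM per kb in siNC and to 104, 104 and 100.2 in siPiezo1. The BH3-only genes summed to 24.0, 24.99 and 26.8 CPM per kb in siNC and to 27.1, 24.5 and 27.0 in siPiezo1.

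No further gene of the family lists passed the test with 6 libraries. Only 0.00627% of all genes did, so this is not a trait of the family. The counts for the pro-survival, effector and BH3-only lists include the 10 members. Of the pro-survival list of 8 genes, 7 were tested, with 2 above and 5 below 0 and a median log2 fold change of -0.10. Over all genes 52.0% were below 0. Among the 5 are Bcl2a1a, Bcl2a1b and Bcl2a1d, which can share counts and were each highest in siNC 2. Without siNC 2 the list had 4 above and 3 below 0, with a median of 0.04, and 49.2% of all genes were below 0. Bcl2l2, which encodes BCL-W, measured 53.9, 62.6 and 26.7 CPM under siNC, against 64.8, 61.0 and 54.1 CPM under siPiezo1, with siNC 3 the lowest library. Its log2 fold change was 0.33 ± 0.29 (SE), and 0.57 ± 0.34 (SE) without siNC 2. Bcl2l10 was listed at 0 in all libraries. Of the effector list of 7, 6 were tested, with 2 above and 4 below 0 and a median of -0.08. Leaving out siNC 2 gave 3 above and 3 below 0 (median 0.00077). Outside the 10 members, the genes with the smallest p in that list were Mtch2, Vdac1 and Vdac2, which all encode outer-membrane proteins. Their log2 fold changes were 0.09, -0.08 and -0.07, and those of Vdac1 and Vdac2 were -0.13 and -0.0069 without siNC 2. Of the 8 BH3-only genes 7 were tested, with 4 above and 3 below 0 and a median of 0.16, and Hrk was listed at 0. Leaving out siNC 2 gave 5 above and 2 below 0 (median 0.07). Bmf, which encodes a BH3-only protein tied to the cytoskeleton, measured 20.6, 9.01 and 24.99 CPM under siNC, against 28.7, 24.4 and 21.0 CPM under siPiezo1. Its log2 fold change of 0.44 ± 0.36 (SE) became 0.11 ± 0.15 (SE) without siNC 2. Bad had -0.07 ± 0.24 (SE), or -0.20 ± 0.24 (SE) without siNC 2, and Bik stayed at or below 0.239 CPM.

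Of the BCL2-like genes of other roles, 5 of 7 were tested, with 3 above and 2 below 0 and a median of 0.05. Leaving out siNC 2 gave 5 above and 0 below 0 (median 0.08). The mitophagy receptor gene Bnip3l measured 133, 112 and 137 CPM under siNC, against 146, 140 and 145 CPM under siPiezo1. Its groups did not overlap, and its log2 fold change was 0.17 ± 0.10 (SE), or 0.08 ± 0.06 (SE) without siNC 2. Its relative Bnip3 measured 48.7, 68.8 and 45.1 CPM under siNC, against 57.8, 61.5 and 64.3 CPM under siPiezo1. Bnip3 had a fold change of 0.17 ± 0.17 (SE), and without siNC 2 of 0.38 ± 0.08 (SE; edgeR adjusted p = 0.0808). Becn1, an autophagy gene whose product binds BCL2, had 0.05 ± 0.07 (SE).

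Downstream of the mitochondria, 0 of 14 apoptosome and caspase genes passed the test, where 0.00627% of all genes were called. Of the 14, 7 were above and 7 below 0, with a median of -0.012, or 0.011 without siNC 2. Casp9, the initiator caspase of the apoptosome, measured 45.8, 37.9 and 51.6 CPM under siNC, against 36.4, 15.5 and 33.0 CPM under siPiezo1. Its groups did not overlap, siPiezo1 2 was far the lowest, and the log2 fold change was -0.67 ± 0.31 (SE; edgeR adjusted p = 0.978). Diablo, which encodes the IAP antagonist SMAC, had -0.55 ± 0.29 (SE), or -0.32 ± 0.27 (SE) without siNC 2. Dffa, the inhibitor of the caspase-activated DNase, had 0.21 ± 0.11 (SE). Of 9 genes for inhibitors of apoptosis 5 were above and 4 below 0, with a median of 0.03. None was called, beside 0.00627% of all genes. Naip1 had 0.58 ± 0.24, Naip6 0.20 ± 0.17 and Birc6 -0.10 ± 0.07 (SE), with Naip6 at 0.04 ± 0.10 (SE) without siNC 2, and counts of the Naip genes can be split among paralogs.

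In the death receptor list 11 of 12 genes were tested, with 5 above and 6 below 0 and a median of -0.0064. Leaving out siNC 2 gave 6 above and 5 below 0 (median 0.0078). None was called with 6 libraries, beside 0.00627% of all genes. Fas, the death receptor gene, measured 60.1, 71.2 and 64.3 CPM under siNC, against 76.4, 71.2 and 84.6 CPM under siPiezo1. Its lowest siPiezo1 value equalled its highest siNC value to 3 digits, and the log2 fold change was 0.25 ± 0.10 (SE), with an edgeR quasi-likelihood p of 0.0496 unadjusted and 0.978 adjusted. The adaptor Fadd had -0.13 ± 0.14 (SE), or -0.21 ± 0.14 (SE) without siNC 2. Tnf had -0.63 ± 0.43 (SE), and its sign turned to 0.11 ± 0.09 (SE) without siNC 2. Of 17 genes of p53 and stress inputs 6 were above and 11 below 0, with a median of -0.05. Leaving out siNC 2 gave 8 above and 9 below 0 (median -0.03). None of the 17 was called with 6 libraries, again beside 0.00627% of all genes. Cdkn1a, the p21 gene and a p53 target like Bbc3 and Pmaip1, measured 217, 257 and 235 CPM under siNC, against 179, 213 and 192 CPM under siPiezo1. Each siPiezo1 value was below each siNC value, with a log2 fold change of -0.28 ± 0.10 (SE), with an edgeR quasi-likelihood p of 0.0296 unadjusted and 0.978 adjusted. Trim17, at most 1.36 CPM, had 1.60 ± 0.61 and Chac1, at most 2.68 CPM, -0.62 ± 0.30 (SE). Of the 13 NF-kB feedback and inflammatory genes 2 were above and 11 below 0 with all libraries (median -0.29), and 7 above and 6 below 0 without siNC 2 (median 0.16). Nfkb1 had -0.18 ± 0.10, Ccl2 -3.04 ± 1.40 and Il6 -3.97 ± 1.69 (SE) with all libraries. Without siNC 2 Nfkb1 had -0.10 ± 0.06, and the signs of Ccl2 and Il6 turned, to 0.57 ± 0.16 and 0.29 ± 0.74 (SE).

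Likeness to each member was measured as Pearson's r of log2(CPM + 1) over the 6 libraries, among genes with a mean of at least 10 CPM. The points share their libraries and their scaling, and with so few of them high values are common. An outlying library can carry a high r, and siNC 2 was the highest or lowest for 9 of the 10 members and 55.9% of all genes. Psmb7, named below for Bcl2a1b, stood at 118 CPM in siNC 2 and at 86.2 to 91.8 CPM elsewhere. How far each r rests on 1 library was not tested, so the named genes cannot be read as varying together beyond it. Of 8709 genes, 177 had an r of at least 0.95 with Bcl2, 160 with Bcl2l1, 124 with Bcl2a1b and 58 with Mcl1. For the pro-death genes the counts were 53 for Bcl2l11, 25 for Bax, 18 for Pmaip1, 10 for Bid and 9 for Bak1, and 167 of 8710 for Bbc3. The 3 genes most like Bcl2 were Smc3, Plp2 and Ckap2l (r of 0.993 to 0.995), those most like Bcl2l1 were Lsp1, Pdpr and Rpl38 (0.993 to 0.995), and those most like Bcl2a1b were Qpctl, Psmb7 and Pa2g4 (0.996 to 0.997). Pikfyve, Rragc and Aup1 were most like Mcl1 (0.989 to 0.996). Zfp157, Slfn8 and Rbm7 were most like Bax (0.983 to 0.989), and Sirt6, Hnrnpu and Coa4 most like Bak1 (0.974 to 0.999). For the BH3-only genes these were Dcaf1, Pgk1-rs7 and Nol7 for Bcl2l11 (0.982 to 0.986), Fcho2, Trafd1 and Dcaf8 for Bbc3 (0.990 to 0.996), and Zfp386, Fundc2 and Rps19-ps6 for Pmaip1 (0.988 to 0.989).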

How the data were processed

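Poly(A) RNA of 6 libraries was analysed. Per the submitters' processing notes, cutadapt 1.9, HISAT2 2.0.4, StringTie 1.3.4d and build GRCm39 were used, with DESeq2 and edgeR also named. What each tool did, the annotation used and the strand setting are not stated there. The authors deposited estimated counts per Ensembl gene, whole numbers that needed no rounding, with 0 columns left unmapped. The design had assumed counts or estimated counts. Symbols came from GENCODE M21 and matched 55141 of 55401 identifiers. Its build, GRCm38, differs from the authors', so no coordinates are given. Exon lengths and overlaps are also from M21.

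In R 4.3.3 genes were kept by filterByExpr, libraries were scaled by TMM, and edgeR 4.0.16's robust quasi-likelihood test had the group as its only term, with Benjamini-Hochberg adjustment over all 15959 genes (threshold 0.05). Where a library was left out, the same 15959 genes were fitted. SEs are the fold change over the square root of F, and 95% intervals use the fit's degrees of freedom. Alternatives used DESeq2 1.42.0, limma 3.58.1 and other scalings, filters and libraries.

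The members and gene lists were chosen with earlier results of these data known. Named genes are the members, the other Bcl2a1 copies, Piezo1, up to 3 further genes of the smallest p in each pathway list, list genes past the threshold with 6 libraries or without siNC 2, and the 3 genes most like each member, which for Bid are not reported here. The cell type markers and Il1b, Nfkb2, Relb and Icam1 shown for siNC 2, Bcl2l2 and the genes listed at 0 were named after their values were seen.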

Additional observations from a re-analysis of the deposited data

How the results depend on the processing

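The count of members called was 0 under all 15 alternatives, and the fold changes of Bcl2l1, Mcl1, Bcl2a1b, Bax and Pmaip1 and of the summed Bcl2a1 copies kept their sign in each. Over those alternatives Bcl2a1b ranged from -1.56 to -0.41 on the log2 scale (adjusted p of 0.217 to 1 with edgeR, DESeq2 and limma-voom) and the summed copies from -1.53 to -0.21. The median of the pro-survival genes ranged from -0.20 to -0.03 and that of the pro-death genes from 0.03 to 0.14. Over all genes, 1 call became 0 with library totals alone, 88 with DESeq2, 4 with limma-voom and library weights, and 0 to 178 when 1 library was left out, the last without siNC 2; the cause was not tested.

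Signs turned for Bcl2, Bcl2l11, Bbc3, Bid and Bak1. With library weights Bcl2 had 0.38, Bcl2l11 0.025, Bbc3 -0.026 and Bid 0.059. With 1 library left out at a time Bcl2 ranged from -0.35 to 0.48, Bcl2l11 from -0.096 to 0.045, Bbc3 from -0.11 to 0.42, Bid from -0.14 to 0.074 and Bak1 from -0.28 to 0.20. The sign turned for the first 4 without siNC 2, for Bak1 and Bid without siNC 3, for Bcl2 without siPiezo1 1 and for Bid without siPiezo1 2. The cause was not tested.

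It is unknown whether the replicate numbers pair the samples. Deviations from the group means correlated at 0.03, -0.08 and -0.18 for same-numbered libraries and at -0.12 to 0.19 for the others. With 3 libraries per group these values cannot decide the question. With the replicate number as a block 0 genes were called, Bcl2 turned to 0.041, and no member was called. Mcl1 over the next member was 3.05 with the longest transcript as length, against 4.37, since Bax has a shorter longest transcript than exon total. Pmaip1 kept its sign but ranged from 0.10 to 0.55. The smallest values rest on about 42 fragments (Bcl2a1d) and 88 (Bbc3), and with counts divided by 4 the SE of Bbc3 was 0.313, against 0.315.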
